A study of Mus musculus with 20 samples.

Results

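The receptor RANK (gene Tnfrsf11a) and 9 genes that carry its signal inside the cell were examined for the histone mark H3K27ac: the adaptors Traf1, Traf2, Traf3, Traf5 and Traf6, the kinases Map3k7 (TAK1) and Map3k14 (NIK), the TAK1 partner Tab2, and the ubiquitin ligase Birc3 (cIAP2). These 10 genes were chosen by name from 21887 protein-coding genes, and every peak that overlapped a gene's GRCm38 span or the 25 kb on either side of it was counted as belonging to that gene. H3K27ac, acetylation of lysine 27 of histone H3, marks active promoters and enhancers, and was measured by ChIP-seq, the sequencing of immunoprecipitated chromatin, in RAW264.7 cells, an established mouse macrophage line that can form osteoclasts. Of 20 samples, 10 were H3K27ac libraries, each with 1 deposited list of broad peaks, and the 10 input libraries were not analysed here.

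The untreated, RANKL and RANKL+I-BET groups each held 3 libraries. For I-BET without RANKL there was 1, with the replicate number 3. RANKL, the osteoclast-inducing cytokine, was given at 50 ng/ml and I-BET at 500 nM, each for 4 h, and no genetic change is named in any group. I-BET is an inhibitor of BET bromodomain proteins, which bind acetylated histones. Libraries are named below by group and replicate number. The labels give bone marrow as the source and a monocyte-derived line as the cell type, and do not say whether the replicates came from separate cultures, so any spread between them may be technical.

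RANK is a receptor of the TNF receptor family and has no enzyme activity of its own. Binding of RANKL recruits TRAF proteins to its tail; TRAF6 activates TAK1, held by TAB2, and through it canonical NF-kB and MAP kinases. In the non-canonical branch, TRAF3, TRAF2 and the cIAP proteins keep NIK low by ubiquitination until the receptor engages them, and osteoclast formation from macrophage precursors depends on the receptor and on TRAF6.

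The promoters of 4 of these genes are shown for their coverage by peaks or for an NF-kB match. Each sequence below runs 5′ to 3′ from 250 bases before to 50 after the annotated start (RefSeq, GRCm38.p6), and capitals mark a match to the NF-kB consensus, searched on both strands. The Tnfrsf11a window (chr1:105780473-105780772, plus strand) lay wholly inside peaks in the 7 libraries numbered 1 and 3, whereas the Traf1 window (chr2:34961723-34962022, minus strand) lay in none of them. Those of Traf3 (chr12:111166120-111166419, plus strand) and Map3k7 (chr4:31963857-31964156, plus strand) are the members' promoters with an NF-kB match.
Tnfrsf11a: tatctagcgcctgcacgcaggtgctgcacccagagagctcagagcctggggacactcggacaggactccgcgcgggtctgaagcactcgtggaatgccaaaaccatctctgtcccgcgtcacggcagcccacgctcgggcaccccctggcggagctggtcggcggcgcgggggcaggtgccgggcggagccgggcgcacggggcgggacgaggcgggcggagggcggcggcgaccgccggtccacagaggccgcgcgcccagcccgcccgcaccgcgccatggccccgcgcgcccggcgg
Traf1: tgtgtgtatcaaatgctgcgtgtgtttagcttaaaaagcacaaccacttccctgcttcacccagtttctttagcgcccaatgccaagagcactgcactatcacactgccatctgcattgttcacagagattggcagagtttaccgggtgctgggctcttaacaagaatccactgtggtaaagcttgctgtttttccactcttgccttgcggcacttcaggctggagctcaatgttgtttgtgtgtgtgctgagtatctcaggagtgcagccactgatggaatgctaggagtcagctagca
Traf3: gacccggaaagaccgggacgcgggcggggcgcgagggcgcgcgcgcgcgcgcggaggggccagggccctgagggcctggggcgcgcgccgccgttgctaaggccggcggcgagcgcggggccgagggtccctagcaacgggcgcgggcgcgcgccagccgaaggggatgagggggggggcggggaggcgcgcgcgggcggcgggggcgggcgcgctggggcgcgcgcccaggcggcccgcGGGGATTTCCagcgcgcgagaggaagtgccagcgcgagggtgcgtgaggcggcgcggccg
Map3k7: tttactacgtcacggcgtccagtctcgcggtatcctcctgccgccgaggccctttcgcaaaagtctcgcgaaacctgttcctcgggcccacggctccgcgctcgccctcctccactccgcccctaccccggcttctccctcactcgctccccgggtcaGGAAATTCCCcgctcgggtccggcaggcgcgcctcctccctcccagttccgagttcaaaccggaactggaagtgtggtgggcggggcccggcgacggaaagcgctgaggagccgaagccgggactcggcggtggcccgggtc
The match began 10 bases before the start of Traf3 and 92 bases before that of Map3k7. Together these 2 make 2 of the 11 member promoters (Tab2 has 2 annotated starts), and the same consensus occurs in 8.46% of 32851 mouse promoters of this length. A GC box, GGGCGG, occurred in 8 of 11 against 35.7% of all promoters, TGACG in 5 against 20.8%, GAGGAAGT in 1 (Traf3) against 3.2%, and AP-1, TGANTCA, and the E-box CACGTG in 0 against 7.81% and 7.15%. The GC content was 76.7% at Tnfrsf11a, 84.0% at Traf3, 69.0% at Map3k7 and 48.7% at Traf1, within 38.7 to 84.0% over the 11 member promoters, beside a median of 52.7% over all promoters. A match is a description of letters and not a site of binding.

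The lists of replicate 2 stood apart, and their values at single genes are named as such where they are shown. Lists numbered 1 and 3 and I-BET held 13368 to 17794 peaks over 16.1 to 25.9 Mb. Untreated 2 held 9893 peaks over 7.79 Mb, RANKL 2 held 141905 over 184.6 Mb and RANKL+I-BET 2 held 6041 over 3.44 Mb. A peak lay within 1 kb of an end of 7 to 10 of 10 macrophage marker genes in 9 lists and of 6 in RANKL+I-BET 2. For 10 lymphocyte markers the number was 0 to 2 and for 8 fibroblast and osteoblast markers 0, except in RANKL 2, where it was 10 and 5. In RANKL 2 it was also 7 of 8 genes of liver, muscle, pancreas and brain, against 0 of 8 in every other list. The lists give no read counts, so depth is unknown.

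All 10 genes had an H3K27ac peak within 1 kb of an annotated start in at least 1 list, though at Traf1 it stopped short of the start itself in all lists but RANKL 2. Merging the overlapping peaks of the 7 lists numbered 1 and 3 (I-BET included) gave 35 regions at the 10 genes, of 21975 in the genome, with a median length of 1380 bp against 1281 bp over all regions. A region was called held when a list's peaks covered at least 1 bp of it. Of the 35, 11 touched the 1 kb around a start, 14 lay elsewhere inside a gene, 5 upstream and 5 downstream. All 6 libraries numbered 1 and 3 of the 3 groups held 18 of the 35 regions, beside 43.1% of all regions, and 6 of the 35 were held by 1 of the 7 lists, beside 19.9%. A region touching the 1 kb around a start was held for all 10 genes in every RANKL library and in RANKL+I-BET 1 and 3, for 9 genes in untreated 1, for 8 in untreated 2, untreated 3 and I-BET, and for 6 in RANKL+I-BET 2. A peak in such a region can lie further off: at Tnfrsf11a that of RANKL+I-BET 2 lay 5994 to 6243 bp past the start. The share of all genes was not counted this way. Over all genes, a peak within 1 kb of either gene end was found for 32.4%, 27% and 37.7% in untreated 1, 2 and 3. It was found for 41.5%, 74.0% and 41.8% in RANKL 1, 2 and 3, for 41.7%, 17.3% and 36.7% in RANKL+I-BET 1, 2 and 3 and for 34.8% in I-BET.

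Because the windows differ in length, levels are compared between genes as the percent of the window covered, averaged over the 6 libraries numbered 1 and 3 of the 3 groups. Map3k14 had 12.1% (7.87 to 15.3% over libraries), Tnfrsf11a 8.38% (5.22 to 10.6%), Traf1 7.01% (5.51 to 8.66%) and Birc3 6.64% (6.12 to 7.17%). Traf2 followed with 3.79% (2.58 to 5.68%), Traf3 with 2.17% (1.48 to 2.95%), Tab2 with 1.90% (1.62 to 2.38%), Map3k7 with 1.47% (1.08 to 1.78%), Traf5 with 1.33% (0.62 to 1.97%) and Traf6 with 0.53% (0 to 0.87%). The median over all genes was 0.93%. The ranges of neighbours in this order overlapped, except that Birc3 was above Traf2 in all 6 libraries. Map3k14 was above 96.6% of genes and Tnfrsf11a above 92.9%, whereas Traf6, with the least of the 10, was above 44.6%.

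**Figure D1:**
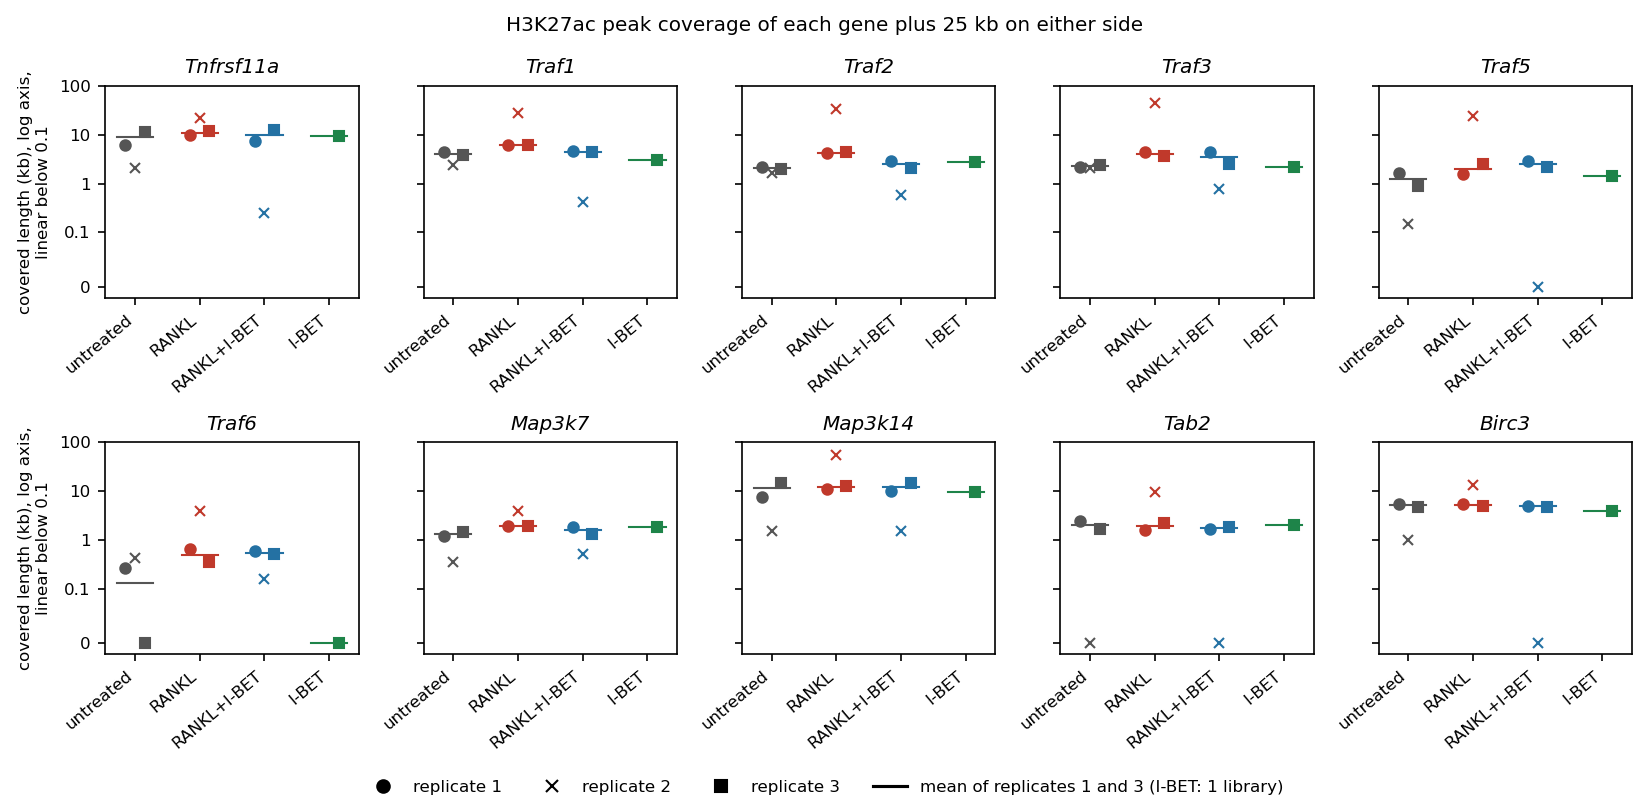
Covered length of each gene's window in kb (log axis, linear below 0.1 kb) in every library, with circles for replicate 1, crosses for replicate 2, squares for replicate 3 and a line at the mean of replicates 1 and 3 (for I-BET, the 1 library). The crosses of RANKL lie above and those of RANKL+I-BET below the other libraries of their group at all 10 genes, and the circles and squares of RANKL lie above those of untreated at Traf1, Traf2, Traf3, Traf6 and Map3k7.

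The receptor gene carried a broad acetylated domain over its start and the first part of the gene, as 1 peak or several, in all groups. The domain of Tnfrsf11a (chr1:105780182-105791397) ran from −0.54 kb to 10.7 kb relative to the start and was the longest of the 35 regions, 11216 bp. Among the 7 lists numbered 1 and 3, it was a single peak only in untreated 3 and RANKL+I-BET 3. The domain was made of 5 peaks in untreated 1, 2 in RANKL 1 and in RANKL 3, and 3 in RANKL+I-BET 1 and in I-BET. Its covered length was 5722 bp in untreated 1, 10995 bp in untreated 3, 9984 and 9964 bp in RANKL 1 and 3, 6607 and 11216 bp in RANKL+I-BET 1 and 3, and 8481 bp in I-BET. The RANKL libraries lay inside the spread of both other groups. In the replicate 2 lists the domain was covered over 2116 bp in untreated, 9890 bp in RANKL and 250 bp in RANKL+I-BET. Its strongest peak had a fold enrichment of 2.73 in untreated 1, 2.23 in untreated 3, 3.54 and 2.19 in RANKL 1 and 3, 3.56 and 2.38 in RANKL+I-BET 1 and 3 and 2.83 in I-BET. Fold enrichment is in every case the authors' own value for a peak, and the background it was set against is not given. Folds serve as a description: the median fold of a list ran from 1.93 to 4.56, so folds of different lists are not on one scale.

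Within the Tnfrsf11a gene, smaller regions differed between libraries. A region 19998 to 21150 bp past the start (chr1:105800721-105801873) was held by RANKL+I-BET 1 over 267 bp, RANKL+I-BET 3 over 982 bp and I-BET over 424 bp, and by none of the 3 untreated and 3 RANKL lists. The peaks of RANKL+I-BET 1 (20777 to 21043 bp) and I-BET (19998 to 20421 bp) did not overlap and were joined by that of RANKL+I-BET 3. Their folds were 3.86 in RANKL+I-BET 1, 1.99 in RANKL+I-BET 3 and 2.07 in I-BET. These were at or above the folds of 62.8%, 12.2% and 13.3% of the peaks of each list. A region 33.3 to 34.6 kb in (chr1:105813984-105815363) was covered over 473, 0 and 553 bp in untreated 1, 2 and 3 and 0, 1380 and 1304 bp in RANKL 1, 2 and 3, with no peak in any list with I-BET. The window as a whole was covered over 6.20 kb in untreated 1, 11.5 kb in untreated 3, 9.98 and 11.8 kb in RANKL 1 and 3, 7.56 and 12.6 kb in RANKL+I-BET 1 and 3, and 9.30 kb in I-BET, and the 3 groups overlapped.

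**Figure D2:**
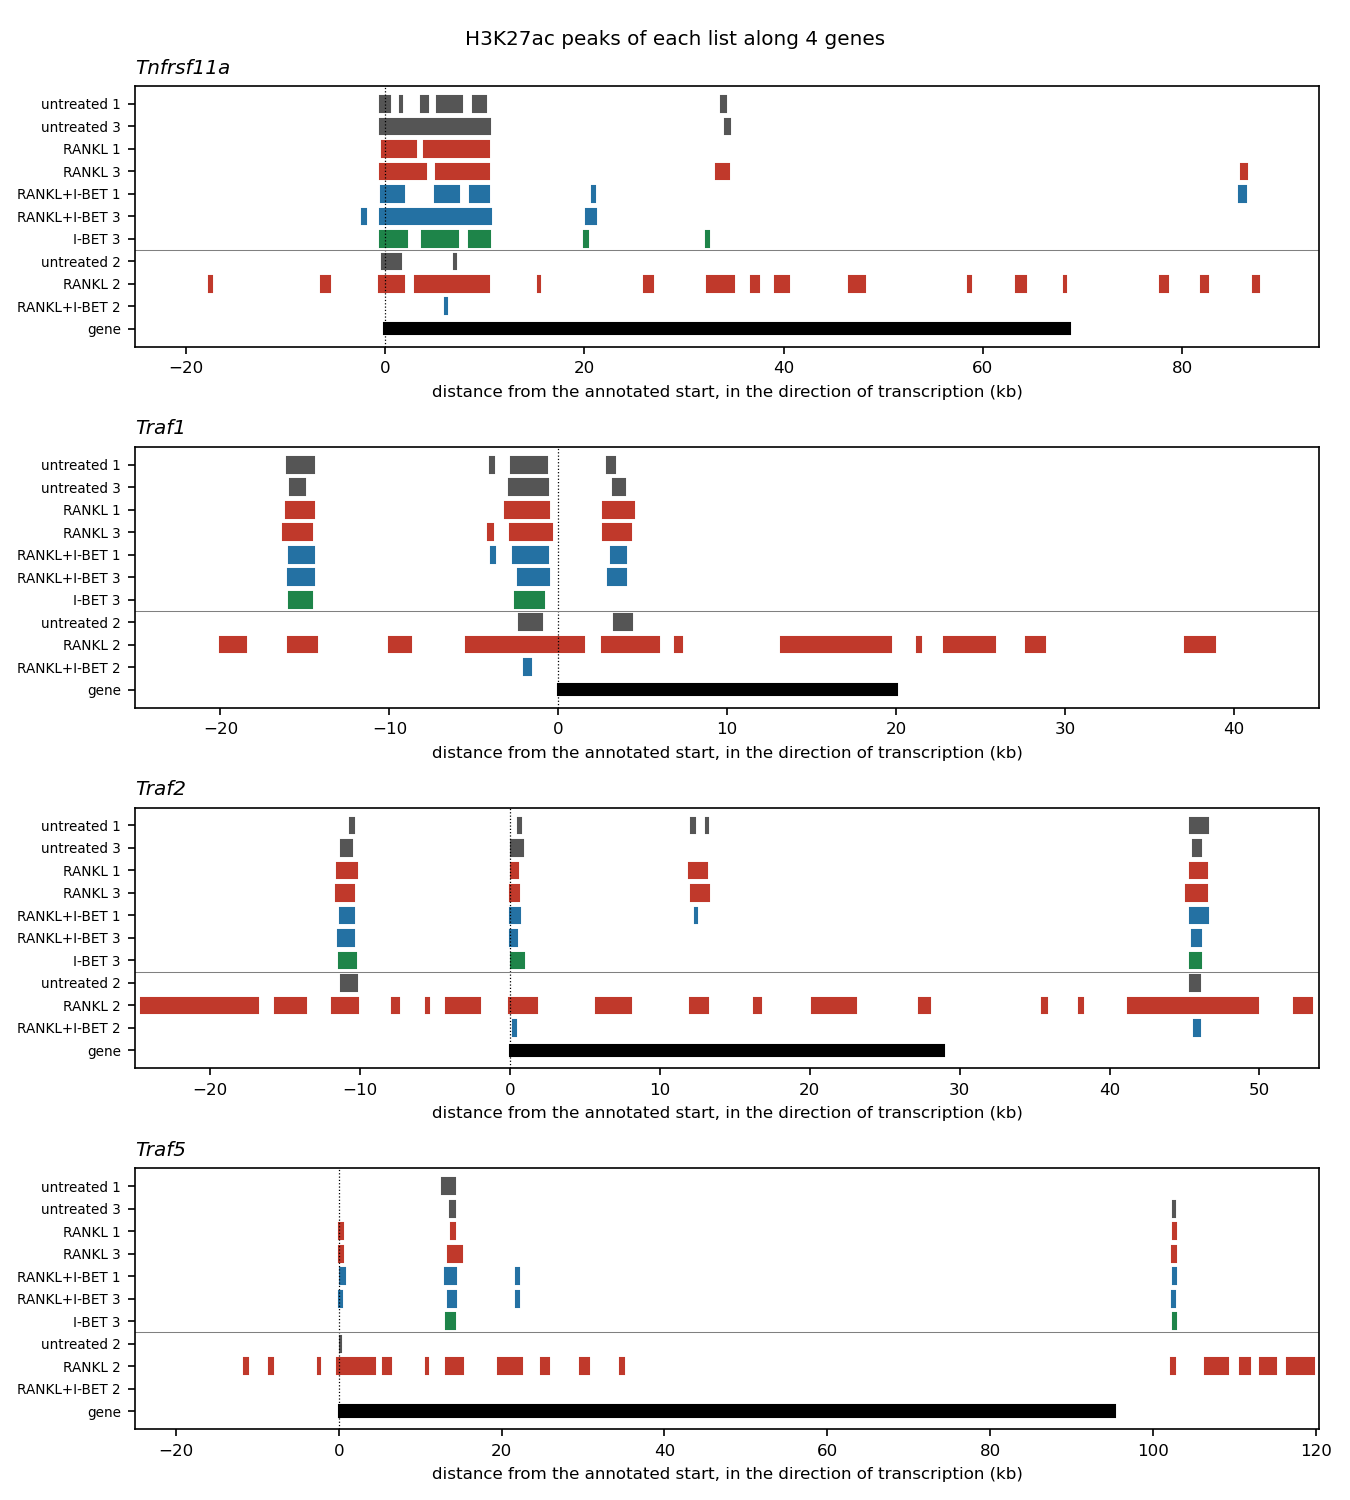
Peaks of the 10 lists (bars, 1 row per library, coloured by group) around Tnfrsf11a, Traf1, Traf2 and Traf5, by distance in kb from the annotated start (dotted line) in the direction of transcription, with the gene as a black bar and the replicate 2 lists below the grey line. Peaks of the Tnfrsf11a domain cover the start in every list but RANKL+I-BET 2. The Traf1 peaks lie on either side of its start in most lists, upstream only in I-BET and RANKL+I-BET 2, and across it in RANKL 2. The peak 12 kb into Traf2 is present in RANKL 1 and 3 and in the much longer RANKL 2 list.

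At Traf1 and Traf2 the peaks of RANKL 1 and 3 covered more of the window than those of the untreated and RANKL+I-BET libraries of the same numbers, in lists that were also longer overall under RANKL. TRAF1, an adaptor without a RING domain whose gene is a known NF-kB target, binds TRAF2. The Traf1 window was covered over 4.14 ± 0.40 kb in untreated, 6.06 ± 0.01 kb in RANKL and 4.54 ± 0.23 kb in RANKL+I-BET (mean ± SD, n = 2, replicates 1 and 3), and over 3.10 kb in I-BET. Its start itself was bare: the nearest region (chr2:34962139-34964953) lay at −3.18 to −0.37 kb, upstream of it, and the promoter window printed above was covered in RANKL 2 alone. A region 2.65 to 4.48 kb into the gene (chr2:34957289-34959119) differed most, with 491 and 714 bp in untreated 1 and 3, 1831 and 1616 bp in RANKL 1 and 3, 869 and 1079 bp in RANKL+I-BET 1 and 3 and no peak in I-BET. The 2 RANKL values were above the other 5, but untreated 2 had 1103 bp there, above both untreated values beside it. With all lists reduced to one covered length of 16.1 Mb, by −log10 p, the Traf1 window was covered over 4.43 and 0.714 kb in untreated 1 and 3, 6.07 and 4.37 kb in RANKL 1 and 3, and 3.19 and 4.38 kb in RANKL+I-BET 1 and 3, and the groups overlapped. The region nearest the start had the highest fold at Traf1 in the 7 lists numbered 1 and 3, 5.49 in RANKL+I-BET 3, with 4.74 in RANKL+I-BET 1, 3.21 and 2.53 in RANKL 1 and 3, 3.05 and 2.08 in untreated 1 and 3 and 3.17 in I-BET.

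TRAF2 joins TRAF3 and the cIAP proteins in the complex that restrains NIK. The Traf2 window was covered over 2.18 kb in untreated 1, 2.04 kb in untreated 3, 4.15 and 4.49 kb in RANKL 1 and 3, 2.98 and 2.12 kb in RANKL+I-BET 1 and 3, and 2.79 kb in I-BET. Both RANKL values lay above the other 5. At one covered length the values were 2.18 and 1.33 kb in untreated 1 and 3, 3.64 and 4.49 kb in RANKL 1 and 3, 1.13 and 1.02 kb in RANKL+I-BET 1 and 3 and 2.79 kb in I-BET, and the RANKL values were again the highest. In replicate 2 the values, as deposited, were 1.69 kb in untreated, 34.6 kb in RANKL and 0.587 kb in RANKL+I-BET. A region inside the gene, 11.9 to 13.3 kb past the start (chr2:25533669-25535009), was picked out after its values were seen. It was covered over 1196, 1208 and 1228 bp in RANKL 1, 2 and 3, over 476 bp in untreated 1 and 145 bp in RANKL+I-BET 1, and had no peak in the other 5 lists. Its fold was 5.22, 7.64 and 4.95 in RANKL 1, 2 and 3, 2.19 in untreated 1 and 3.63 in RANKL+I-BET 1. RANKL 1 and 3 thus had peaks of nearly one width there, and untreated 1 and RANKL+I-BET 1 had shorter ones. RANKL 2 had a peak of like width, but its list covered 184.6 Mb in all and 34.6 kb of this window. The region with the highest fold at Traf2 in the 7 lists, 5.51 in RANKL 3, lay upstream at −11.6 to −10.2 kb, over the start of the neighbouring gene Edf1 (chr2:25557182-25558547). That region was covered over 298 and 711 bp in untreated 1 and 3, 1312 and 1166 bp in RANKL 1 and 3, 988 and 1019 bp in RANKL+I-BET 1 and 3 and 1119 bp in I-BET, so part of the Traf2 window's difference lies at another gene. A downstream region over C8g and Fbxw5 had 1192 and 521 bp in untreated 1 and 3. It had 1134 and 1452 bp in RANKL 1 and 3, and 1190 and 589 bp in RANKL+I-BET 1 and 3. Coverage inside Traf2 itself was 0.69 and 0.806 kb in untreated 1 and 3 and 1.71 and 1.85 kb in RANKL 1 and 3. In RANKL+I-BET 1 and 3 it was 0.799 and 0.495 kb. The start of Traf2 (chr2:25545995-25546964) was covered over 214 and 806 bp in untreated 1 and 3, 511 and 642 bp in RANKL 1 and 3, 654 and 515 bp in RANKL+I-BET 1 and 3 and 916 bp in I-BET, with overlap between the groups.

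TRAF3, the adaptor that brings NIK to its ligases, had marks on its promoter and at an upstream region at −7.18 to −5.49 kb (chr12:111159189-111160879). The region at the start (chr12:111164253-111167841) was covered over 198 bp in untreated 1, 1619 bp in untreated 3, 2837 and 2295 bp in RANKL 1 and 3, 3214 and 1676 bp in RANKL+I-BET 1 and 3 and 1397 bp in I-BET. Among these 7 lists the 4 with RANKL were above the other 3, by a small margin in RANKL+I-BET 3. The replicate 2 lists had 858 bp in untreated, 3042 bp in RANKL and 252 bp in RANKL+I-BET, the last below every list but untreated 1. The upstream region had the highest fold of the 7 lists numbered 1 and 3, 5.33 in RANKL+I-BET 1. The whole window was covered over 2.31 ± 0.11 kb in untreated, 4.06 ± 0.56 kb in RANKL and 3.47 ± 1.35 kb in RANKL+I-BET (mean ± SD, n = 2). At one covered length the Traf3 values were 2.31 ± 0.11, 2.64 ± 1.44 and 3.47 ± 1.35 kb in the same order, and RANKL and untreated overlapped.

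Traf5 and Traf6 had short peaks at the start whose presence varied. TRAF5, an adaptor that can bind RANK, had a start region (chr1:192091800-192092571) held by RANKL 1 over 528 bp, RANKL 3 over 445 bp, RANKL+I-BET 1 over 710 bp and RANKL+I-BET 3 over 413 bp, and by neither untreated 1, untreated 3 nor I-BET. Among the replicate 2 lists, however, untreated held it over 147 bp, RANKL over 772 bp and RANKL+I-BET not at all. Another region of Traf5, 21.8 to 22.2 kb into the gene (chr1:192070432-192070846), was held by RANKL+I-BET 1 over 367 bp with a fold of 6.76, the highest of the gene, by RANKL+I-BET 3 over 415 bp with a fold of 3.23, and otherwise by RANKL 2. The Traf5 window was covered over 1.26 ± 0.51 kb in untreated, 2.02 ± 0.64 kb in RANKL and 2.52 ± 0.48 kb in RANKL+I-BET (mean ± SD, n = 2), and over 1.45 kb in I-BET. At one covered length the Traf5 values were 1.12 ± 0.71, 1.02 ± 0.84 and 1.96 ± 0.27 kb, with RANKL slightly below untreated in place of above it.

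TRAF6 is the ubiquitin ligase that links RANK to TAK1. In the 7 lists numbered 1 and 3 its gene had 1 region, from −0.05 to 0.72 kb relative to the start (chr2:101678370-101679137). Its peak was 265 bp in untreated 1, 426 bp in untreated 2 and absent in untreated 3, 637, 768 and 360 bp in RANKL 1, 2 and 3, 579, 156 and 504 bp in RANKL+I-BET 1, 2 and 3, and absent in I-BET. Among the 7 lists numbered 1 and 3, the peak was thus present in RANKL 1 and 3, RANKL+I-BET 1 and 3 and untreated 1. The lists of RANKL and RANKL+I-BET with these numbers were also longer, at 20.6 to 25.9 Mb. Those of untreated 1 and 3 and I-BET covered 16.1 to 19.6 Mb. At one covered length the peak was present in the same lists. Its −log10 q was 1.45 in untreated 1 and 1.19 in untreated 2. Its highest fold was 5.65, in RANKL+I-BET 1, with 3.98 and 3.37 in RANKL 1 and 3 and 2.28 in untreated 1.

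**Figure D3:**
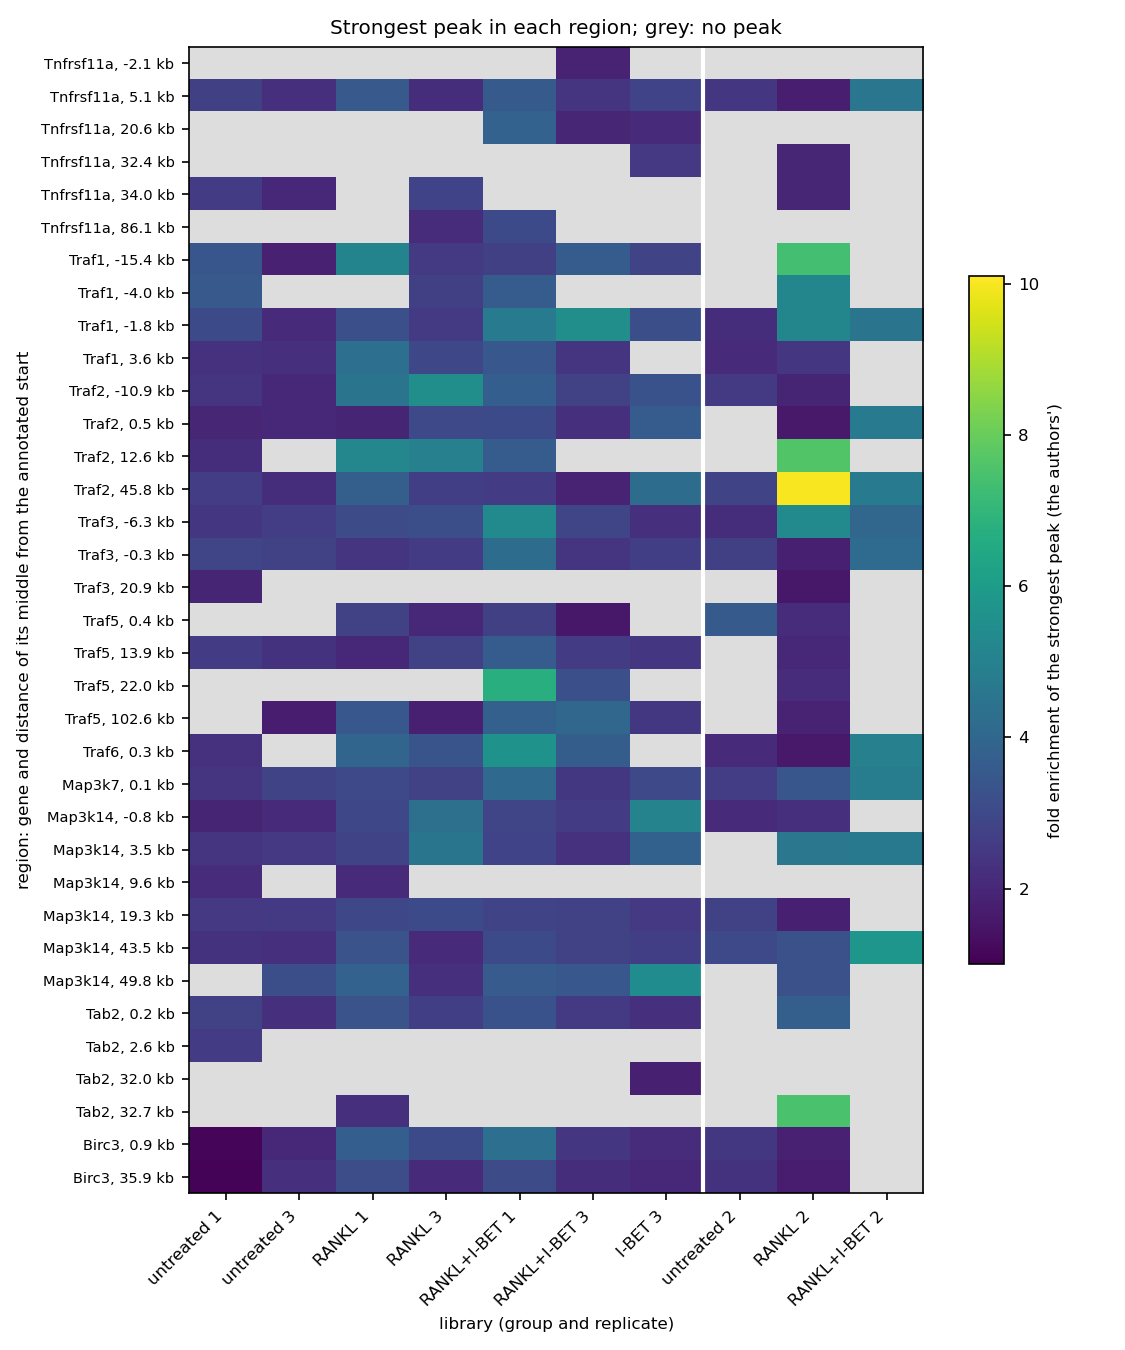
Fold enrichment of the strongest peak (colour, the authors' values, in each list's own scale) in each of the 35 regions (rows, with the distance of the region's middle from the start) in each library (columns, replicate 2 lists right of the white line), with grey where a list has no peak. The row of Traf2 at 12.6 kb is coloured in RANKL 1 and 3 (5.22 and 4.95) and in the much longer RANKL 2 list (7.64). That row is grey in 5 lists, and the start rows are coloured in most columns.

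Among the kinases, Map3k7, which encodes TAK1, had a single region, at its start (chr4:31963127-31965183), and Map3k14, which encodes NIK, had 6. The Map3k7 region was covered over 1190 bp in untreated 1, 1437 bp in untreated 3, 1957 and 1958 bp in RANKL 1 and 3, 1809 and 1331 bp in RANKL+I-BET 1 and 3 and 1803 bp in I-BET. Both RANKL values were above the other 5. In replicate 2 the region was covered over 353 bp in untreated, 1410 bp in RANKL and 518 bp in RANKL+I-BET, and its highest fold in the 7 lists was 4.12, in RANKL+I-BET 1.

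The Map3k14 window was covered over 7.68 kb in untreated 1, 14.9 kb in untreated 3, 11.2 and 12.6 kb in RANKL 1 and 3, 10.2 and 14.3 kb in RANKL+I-BET 1 and 3 and 9.36 kb in I-BET. The untreated values lay on either side of the other 5. The start region (chr11:103266320-103270119) was covered over 378 and 2580 bp in untreated 1 and 3, 1098 and 2198 bp in RANKL 1 and 3, 1823 and 1480 bp in RANKL+I-BET 1 and 3 and 613 bp in I-BET. A downstream region over the gene Spata32 (chr11:103216624-103218609) had the highest fold of the 7 lists numbered 1 and 3, 5.42 in I-BET, and was held by all of these lists except untreated 1.

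The genes of TAB2, the ubiquitin-binding partner of TAK1, and BIRC3, an inducible cIAP, had similar coverage, as deposited, in the libraries numbered 1 and 3 of the 3 groups. The Tab2 window was covered over 2.03 ± 0.51 kb in untreated, 1.93 ± 0.42 kb in RANKL and 1.78 ± 0.13 kb in RANKL+I-BET (mean ± SD, n = 2), and over 2.00 kb in I-BET. Nearly all of it was the region over the first of its 2 annotated starts (chr10:7954741-7957133), where the highest fold of the 7 lists was 3.34, in RANKL 1. The Birc3 window was covered over 5.10 ± 0.46 kb in untreated, 5.14 ± 0.41 kb in RANKL and 4.84 ± 0.29 kb in RANKL+I-BET (mean ± SD, n = 2), and over 3.96 kb in I-BET. The differences between these 3 groups, as deposited, were smaller than the SD of untreated for both genes. At one covered length the Birc3 values were 3.73 ± 2.40, 4.29 ± 1.62 and 4.84 ± 0.29 kb in the same order. In replicate 2, as deposited, the Tab2 window was covered over 0 kb in untreated, 9.45 kb in RANKL and 0 kb in RANKL+I-BET. The Birc3 window was covered over 1.00 kb in untreated 2, 13.3 kb in RANKL 2 and 0 kb in RANKL+I-BET 2. Part of the Birc3 value comes from a region over its neighbour and paralog Birc2 (chr9:7836163-7838304). At the Birc3 start (chr9:7870506-7873968) the fold was 1.12 in untreated 1, 2.00 in untreated 3, 3.73 and 3.03 in RANKL 1 and 3, 4.32 and 2.44 in RANKL+I-BET 1 and 3 and 2.14 in I-BET. The 1.12 was unusual: it was at or above the folds of only 1.0% of the peaks of untreated 1, with a −log10 q of 3.75. The length of this region was 3463 and 2751 bp in untreated 1 and 3, 3373 and 3139 bp in RANKL 1 and 3 and 2962 and 2988 bp in RANKL+I-BET 1 and 3, so that both RANKL values lay above both RANKL+I-BET values and the untreated values lay on either side of all 4.

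Read across the genes, RANKL against untreated gave longer coverage in both libraries numbered 1 and 3 for 5 of 10 genes (Traf1, Traf2, Traf3, Traf6 and Map3k7), beside 53% of the 12186 genes covered over a mean of at least 500 bp, a filter under which Traf6 lies. Coverage was shorter in both for 0 of 10, beside 1.28% of genes. The lists of RANKL 1 and 3 were longer throughout, at 23.7 and 25.9 Mb against 16.1 and 19.5 Mb for untreated. At one covered length the count was 3 of 10 (Traf2, Traf6 and Map3k7), beside 20.2%, with 0 of 10 shorter, beside 13.9%. With all 3 libraries against all 3, as deposited, it was 4 of 10, beside 41.8%, with 0 shorter, beside 0%. The share of these genes with longer coverage was thus near that of all genes as deposited. A region held by both RANKL and neither untreated library was found once, the Traf5 start, or 1 of 35 regions beside 4.55% of all regions, and the reverse was found at 0 of 35, beside 0.159%.

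RANKL+I-BET against RANKL gave shorter coverage in both libraries for 3 of 10 genes (Traf1, Traf2 and Map3k7), beside 29.7%, and longer coverage in both for 0 of 10, beside 6.3%. With the lists at one covered length the 3 became 2 (Traf2 and Map3k7), beside 16.9%, and Traf5 was longer, 1 of 10 beside 15.1%. With all 3 libraries against all 3, as deposited, 3 of 10 were shorter, beside 23.9%. Regions held by both RANKL+I-BET and neither RANKL library numbered 2 of 35, the region 19998 bp into Tnfrsf11a and that 21.8 kb into Traf5, beside 0.387% of all regions, and the reverse pattern was found at 0 of 35, beside 2.13%. These regions were 1153 and 415 bp long, and the one in Traf5 was held by RANKL 2.

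RANKL+I-BET against untreated gave longer coverage in both libraries for 3 of 10 genes (Traf3, Traf5 and Traf6), beside 34.6%, and shorter coverage for 0 of 10, beside 2.87%. At one covered length the same 3 genes were longer, beside 19.3%, and Traf2 was shorter, 1 of 10 beside 12%. With all 3 libraries against all 3 the count of longer genes was 0, beside 0.386%, and that of shorter genes was 0, beside 0.0443%. The 3 comparisons share libraries pairwise, so their values are given side by side and not compared with each other. Regions held by both RANKL+I-BET and neither untreated library were 3 of 35, beside 2.17%, and the reverse was 1 of 35, beside 0.405%.

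The test over all genes was limma (two-sided, Benjamini-Hochberg adjusted) on log2(covered bp + 500) at one covered length, with 6 libraries and 10946 genes, among them 9 of the 10 genes (all but Traf6). It called 0 genes (0%) at an adjusted p under 0.05 in each of the 3 comparisons, with 575, 753 and 333 genes at an unadjusted p under 0.05 for RANKL against untreated, RANKL+I-BET against RANKL and RANKL+I-BET against untreated. Traf2 gave the smallest p of the 9 genes in the first 2 of these comparisons. Its log2 difference was 1.04 ± 0.48 (SE) for RANKL against untreated (adjusted p 0.929 by limma), −1.53 ± 0.48 for RANKL+I-BET against RANKL (p 0.0171 and adjusted p 0.586 by limma) and −0.49 ± 0.48 for RANKL+I-BET against untreated (adjusted p 1 by limma). With the lists as deposited and median-centred, the first 2 of these were 0.42 and −0.50. Traf1 differed by 1.21 ± 0.69, −0.41 ± 0.69 and 0.80 ± 0.69 in the same order (limma adjusted p 0.929, 0.935 and 1), and the first of these was 0.04 with the lists as deposited and median-centred, 0.20 without untreated 3, 2.22 without untreated 1 and −0.36 when all 9 libraries were fitted at one covered length. Those of Traf5 were −0.13, 0.80 and 0.67 with an SE of 0.67, and those of Map3k14 were −0.63, −0.38 and −1.01 with an SE of 0.95. The Map3k14 window at one covered length had 1.24 and 14.3 kb in RANKL+I-BET 1 and 3, against 10.2 and 14.3 kb as deposited. At that length it had 8.58 and 4.33 kb in RANKL 1 and 3, and 7.68 and 12.3 kb in untreated 1 and 3. Over the 9 genes the median log2 difference was 0.079, −0.037 and 0.184, beside 0.026, −0.001 and 0.028 over all genes tested, with 5, 3 and 5 of 9 above 0. With 2 libraries a group the fit had 3 residual degrees of freedom, and a p that misses the threshold does not show that the groups were alike.

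**Figure D4:**
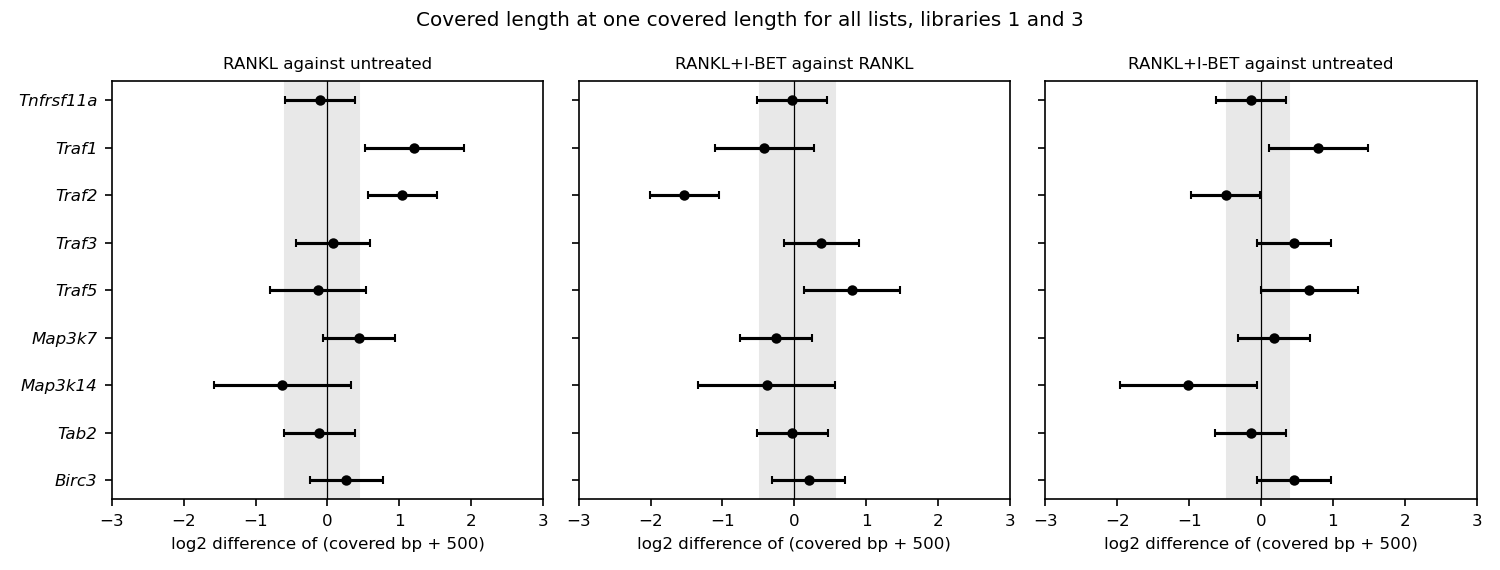
Log2 difference of (covered bp + 500) at one covered length, with the SE from limma as the bar, for the 9 genes tested (rows) in the 3 comparisons (panels), and the interquartile range of all 10946 genes as the grey band. For RANKL against untreated, Traf1, Traf2 and Map3k7 lie right of the band and Map3k14 left of it, for RANKL+I-BET against RANKL, Traf2 lies left and Traf5 right of it, and no difference passed the adjusted threshold.

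I-BET alone can be set beside the other libraries numbered 3, as 1 value per gene. The covered length with I-BET against untreated 3 was 9.30 against 11.5 kb at Tnfrsf11a, 3.10 against 3.86 kb at Traf1, 2.79 against 2.04 kb at Traf2, 2.23 against 2.39 kb at Traf3 and 1.45 against 0.905 kb at Traf5. It was 0 against 0 at Traf6, 1.80 against 1.44 kb at Map3k7, 9.36 against 14.9 kb at Map3k14, 2.00 against 1.67 kb at Tab2 and 3.96 against 4.78 kb at Birc3. Values went in both directions, and 1 library gives no spread.

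The other genes of the pathway were taken from a list of 37 receptors, adaptors, ligases, deubiquitinases and kinases. Of these, 29 were tested by limma and 0 were called in any comparison, with 15, 11 and 15 of 29 above 0 for RANKL against untreated, RANKL+I-BET against RANKL and RANKL+I-BET against untreated. Coverage as deposited was longer in both RANKL than in both untreated libraries for 19 of 37, beside 53% of genes, and shorter in both RANKL+I-BET than in both RANKL libraries for 8 of 37, beside 29.7%. These counts and shares have unlike bases. The 37 genes were not filtered and include genes with no peak, which cannot be counted as longer or shorter. The shares are of genes with a mean of at least 500 bp. Sqstm1, which encodes the scaffold p62 that binds TRAF6, was covered over a mean of 12.5 kb in the 6 libraries. Tnfsf11, the gene of RANKL itself, Tnfrsf11b, the gene of its decoy receptor osteoprotegerin, and Map2k6 had no peak in the 7 lists numbered 1 and 3, and had 3.90, 0.266 and 3.61 kb in RANKL 2.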

How the data were processed

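H3K27ac broad-peak lists of 10 RAW264.7 libraries were used. The submitters' processing notes name FastQC, Bowtie2 and MACS2 as tools, and mm10 (GRCm38) as the genome build. Versions, filters, settings and whether an input was used are not given in the sources used here. Each list belongs to 1 library. The score deposited by the authors was not used. A peak's fold enrichment, as deposited, is a linear ratio. Its p-value and q-value are on a −log10 scale, as deposited by the authors. These values served to rank, filter or describe the peaks of 1 list at a time.

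Base pairs covered by peaks were summed per gene span plus 25 kb (RefSeq, GRCm38). For the test, lists were reduced by −log10 p to the covered length of the shortest of the 6, 16.1 Mb. limma 3.58.1 in R 4.3.3, with a trended prior, fitted log2(bp + 500) for the libraries numbered 1 and 3 of the 3 groups, leaving out genes with a mean under 500 bp. The script was tested on simulated data. Of 200 genes with a planted log2 change for RANKL against untreated, limma recovered 0.5% when the change was 2 and 47.5% when it was 4. It called 0 and 3 unchanged genes in these 2 runs. The replicate 2 lists differ many-fold in length and were kept apart, then included as an alternative. Other windows, pseudocounts, filters, rankings and libraries left out were tried. The genes, the pathway and marker lists and the windows were chosen with earlier results of these data known. All 10 genes are named, with the region at the start, the region of highest fold and regions held by one group and not another. Depth is unknown, and a p-value here reflects only how far these libraries differ among themselves, which may be technical. Python 3.11.15 with pandas 2.3.3 was used for the rest.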

Additional observations from a re-analysis of the deposited data

How the results depend on the processing

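limma called 0 genes in all 54 recomputed counts (18 settings for each of 3 comparisons), with the smallest adjusted p of a setting between 0.0714 and 1. A count of 0 in every setting does not show stability. With the replicate block (replicate number as a covariate) it also called 0. Same-numbered libraries deviated together with correlations of 0.061 to 0.086 for numbers 1 and 3 and 0.014 to 0.251 for all 9 libraries, so the numbers were not taken as pairs. Of 210 recomputed differences of Traf1, Traf2, Traf5 and Map3k14, 189 kept their sign and 21 did not, and the cause was not tested. Part of the 189 could not change: other filters on low values and the replicate block altered only the SE. Leaving out a library of the group outside a comparison also left its difference as it was. The 189 are therefore not a measure of stability.

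With all 9 libraries at one covered length, which moved the median of all genes by −0.24 and 0.27 in the first 2 comparisons, Traf1 gave −0.36 for RANKL against untreated and 0.57 for RANKL+I-BET against RANKL, and Map3k14 gave 0.59 for RANKL+I-BET against RANKL and 0.08 for RANKL+I-BET against untreated. With all 9 as deposited and median-centred, Traf1 gave −0.22 (RANKL against untreated) and −0.36 (RANKL+I-BET against untreated), Traf5 gave 0.46 and Map3k14 0.04 (both RANKL against untreated), and Map3k14 gave 0.20 (RANKL+I-BET against RANKL) and 0.24 (RANKL+I-BET against untreated). With the 6 lists as deposited and median-centred, Traf1 gave −0.17 (RANKL+I-BET against untreated), Traf5 0.06 (RANKL against untreated) and Map3k14 0.20 (RANKL+I-BET against RANKL). Reducing lists by fold gave 0.14 for Traf2 and a 50 kb flank gave −0.43 for Traf5, both RANKL+I-BET against untreated.
Leaving out 1 library at a time, the lone library of an arm being assumed to vary like the others, gave −0.22 to 1.81 for Traf1 (RANKL+I-BET against untreated, lowest without untreated 3), −0.72 to 0.46 for Traf5 (RANKL against untreated, above 0 without untreated 1 or RANKL 1), −1.93 to 1.16 for Map3k14 (RANKL+I-BET against RANKL, above 0 without RANKL 1 or RANKL+I-BET 1) and −2.56 to 0.53 for Map3k14 (RANKL+I-BET against untreated, above 0 without RANKL+I-BET 1). Traf1 for RANKL against untreated ranged from 0.20 to 2.22. Genes longer in all remaining libraries then numbered 0 to 2 for RANKL+I-BET against RANKL (6.3 to 24.2% of all genes) and 3 to 6 for RANKL+I-BET against untreated (34.6 to 70.5%). Genes shorter numbered 0 to 1 for RANKL against untreated (1.28 to 9.13%), 3 to 6 for RANKL+I-BET against RANKL (29.7 to 57.8%) and 0 to 2 for RANKL+I-BET against untreated (2.87 to 21.2%). Of 35 regions, those held numbered 1 to 3 for RANKL and not untreated (4.55 to 14.5% of all regions), 0 to 2 for untreated and not RANKL (0.159 to 7.74%), 0 to 2 for RANKL and not RANKL+I-BET (2.13 to 9.43%), 3 to 5 for RANKL+I-BET and not untreated (2.17 to 10.7%) and 1 to 4 for untreated and not RANKL+I-BET (0.405 to 8.76%).

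The numbers of genes longer or shorter in both libraries changed as follows. At one covered length they were 3 longer for RANKL against untreated, 1 longer for RANKL+I-BET against RANKL and 1 shorter for RANKL+I-BET against untreated. With peaks of −log10 q of at least 5 they were 2 longer for RANKL against untreated (37.9% of all genes), and 1 longer (7.92%) and 1 shorter (23.9%) for RANKL+I-BET against RANKL. With all 3 libraries against all 3, 0 were longer for RANKL+I-BET against untreated.

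The number of regions at the 10 genes was 35 when holding meant at least 50% of a region, 18 with −log10 q of at least 5 and 31 at one covered length. In this order, regions held by RANKL and not untreated were 4, 3 and 0 (8.38%, 8.69% and 2.45% of all regions), by RANKL and not RANKL+I-BET 1, 2 and 1 (3.77%, 5.95% and 3.38%), and by untreated and not RANKL+I-BET 0, 0 and 2 (0.614%, 0.407% and 4.11%). Regions held by RANKL+I-BET and not RANKL were 1 with 50% (0.924%) and 1 at one covered length (4.32%), both at Traf5. With −log10 q of at least 5 they were 2 (2.6%), at Traf5 and Traf1. The Tnfrsf11a region was in none of these. The runs at one covered length and without single libraries for these region counts were chosen after seeing the data, as were the single-library runs for the counts of genes.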

Other observations

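A peak within 1 kb of either end of the gene was found for 8 of the 10 RANK and TRAF pathway genes in each untreated list and in I-BET, for 10 in each RANKL list and in RANKL+I-BET 1 and 3, and for 4 in RANKL+I-BET 2. Over all protein-coding genes the share was 32.4%, 27% and 37.7% in untreated 1, 2 and 3, 41.5%, 74.0% and 41.8% in RANKL 1, 2 and 3, 41.7%, 17.3% and 36.7% in RANKL+I-BET 1, 2 and 3 and 34.8% in I-BET. The pathway list of 37 genes had such a peak in 25, 23 and 27 genes of untreated 1, 2 and 3, in 30, 37 and 31 of RANKL 1, 2 and 3, in 30, 13 and 27 of RANKL+I-BET 1, 2 and 3 and in 20 of I-BET.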
